A study of Mus musculus with 12 samples.

Results

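The Id proteins and E proteins form 2 opposed families of helix-loop-helix factors, and 6 of their genes (Id1, Id2, Id3, Tcf3, Tcf4 and Tcf12) were followed here across dendritic cell (DC) development in the mouse. The 6 were taken by name from 22184 genes measured, each represented by the probe set with the highest mean, and each has 1 probe set. Expression was measured on 12 whole-transcript Affymetrix arrays in 5 populations sorted at steady state: 3 arrays of common DC progenitors (CDP), 2 of pre-CD8 and 2 of pre-CD4 progenitors, 3 of CD24 DCs and 2 of CD172a DCs.

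The 3 progenitors came from bone marrow crushed with mortar and pestle, and both mature DCs from spleen digested with collagenase B and DNase, so organ and stage cannot be told apart in any mature against progenitor comparison. Every group carried Zbtb46GFP/+, a GFP reporter at 1 allele of a classical DC factor, on C57Bl/6, and no group without the reporter was included. The labels give neither age nor sex. The description speaks of 8 to 10 littermates and a purity above 95%. Whether the arrays within a population stand for separate animals or for 1 pool is not clear from the labels, so the p-values cover array-to-array spread that may be technical. The CDP gate took lineage-negative cells with CD115, CD135 and intermediate CD117, and without CD11c or MHC class II. The pre-CD8 gate took cells with CD11c, CD135, intermediate CD117 and intermediate MHC class II, and without Siglec H. The pre-CD4 gate took cells with CD11c, CD115, CD135 and low CD117, and without MHC class II, and did not use Siglec H. CD24 DCs had CD24 and CD11c but no CD172a, and their label also lists MHC class II as absent. The arrays go against that entry at the RNA level. H2-Ab1, an MHC class II gene, averaged 12.19 (log2) in CD24 DCs, 11.92 in CD172a DCs and 6.59 in CDP. CD172a DCs carried CD172a with MHC class II and CD11c.

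E proteins bind DNA at E-boxes (CANNTG) as dimers and drive programmes of lymphoid and plasmacytoid DC (pDC) development. Id proteins have the dimerization domain but no DNA-binding region, so they hold E proteins in dimers that cannot bind. In mice, Id2 is needed for the CD8+ or CD24+ classical DC (cDC1), and Tcf4 (E2-2) is needed to form and maintain pDCs. Tcf3 encodes E2A, and Tcf12 encodes HEB.

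The promoters of 4 of the 6 genes matched the RefSeq table of GRCm38.p6: Id2, Id3, Tcf3 and Tcf12, the last with 3 promoters. Id1 and Tcf4 have no entry in it. Shown are the 250 bases before the start of Id2, the Id gene that changed most, of Id3, its relative that stayed near background, and of Tcf3, the E protein gene with a single promoter in the table. Capitals mark CANNTG, an E-box, which reads as CANNTG on both strands. Id2 lies on the minus strand (chr12:25096093-25096342), Id3 on the plus strand (chr4:136143572-136143821) and Tcf3 on the minus strand (chr10:80433636-80433885). The Tcf3 window precedes 1 RefSeq transcript start that lies inside the annotated gene span (chromosome 10, 80409541 to 80433976), while those of Id2 and Id3 border the outer end of the gene.
Id2: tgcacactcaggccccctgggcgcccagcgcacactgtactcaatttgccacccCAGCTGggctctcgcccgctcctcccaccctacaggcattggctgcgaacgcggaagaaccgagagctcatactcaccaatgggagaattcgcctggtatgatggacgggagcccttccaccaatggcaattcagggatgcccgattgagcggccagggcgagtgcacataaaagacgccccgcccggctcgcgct
Id3: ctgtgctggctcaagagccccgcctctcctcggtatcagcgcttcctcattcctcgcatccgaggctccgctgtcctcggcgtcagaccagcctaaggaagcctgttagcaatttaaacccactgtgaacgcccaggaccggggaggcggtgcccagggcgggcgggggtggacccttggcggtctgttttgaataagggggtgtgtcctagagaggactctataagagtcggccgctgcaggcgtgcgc
Tcf3: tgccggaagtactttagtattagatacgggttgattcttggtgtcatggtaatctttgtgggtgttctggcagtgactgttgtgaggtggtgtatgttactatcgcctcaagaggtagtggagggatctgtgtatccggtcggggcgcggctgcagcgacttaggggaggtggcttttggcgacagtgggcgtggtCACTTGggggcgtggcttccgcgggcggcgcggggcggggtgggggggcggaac
The window of Id2 holds 1 E-box, CAGCTG, whose first base is 196 bases before the start. The window of Id3 holds none, and that of Tcf3 holds 1, CACTTG, 54 bases before the start. Among the 3 Tcf12 promoters, 1 holds CAGCTG 240 bases before its start and another CAAGTG 149 bases before its start. Of all 32851 mouse promoter windows of 250 bases, 66.2% hold CANNTG, 13% hold CAGCTG and 17.2% hold CAGGTG or its reverse complement CACCTG, a form that none of these windows has. A match describes letters and not a bound site.

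All levels are log2 values as deposited, and a difference of 1 is a factor of 2. They compare 1 gene between populations and not genes with each other. As a yardstick for background, 1106 olfactory receptor genes had array medians of 3.08 to 3.40 and 95th percentiles of 4.97 to 5.76. Tcf3, Tcf4 and Tcf12 were above that percentile on 12 of 12 arrays, Id2 on 10 of 12, all but CDP arrays 2 and 3, and Id1 and Id3 on 0 of 12. Where the lower population of a difference had arrays at or below the yardstick, "at least" marks the value recomputed with those arrays set to it. In these sorted bulk samples, fewer cells of a type and less RNA per cell cannot be told apart. As means, 3 marker lists followed the labels, but not every marker did. The mean of 6 cDC1 markers was 9.47 to 9.98 in CD24 DCs and 7.44 to 8.43 in pre-CD8, against 4.58 to 6.77 on the other arrays. Of the 6, Cadm1 and Itgae were not called in pre-CD8 against CDP. The mean of 5 DC progenitor markers was 9.84 to 10.02 in CDP and 6.09 to 7.71 elsewhere. Its member Kit went the other way, at 8.24 in CDP, 9.695 in CD172a DCs and 9.71 in CD24 DCs. The mean of 6 cDC2 markers was 7.63 to 8.10 in CD172a DCs and 5.05 to 5.88 elsewhere. Pre-CD4 at 5.61 to 5.88 lay just above CDP at 5.19 to 5.55 on the cDC2 list. There 1 of its 6 genes was called higher, where 4.54% of all genes were called.

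**Figure D1:**
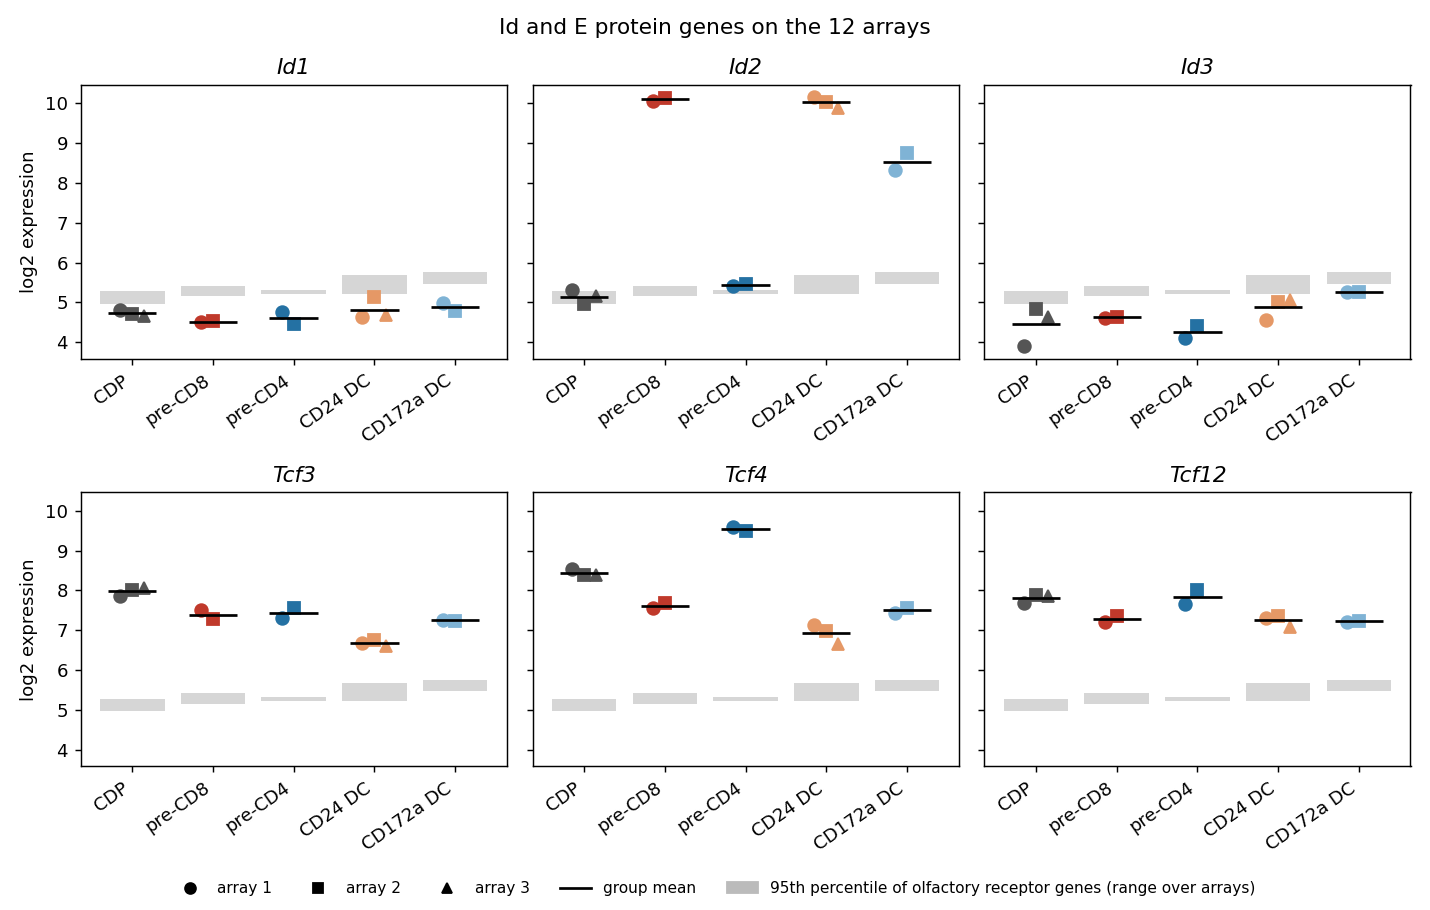
Each panel plots the log2 level of 1 gene (vertical axis) on every array of the 5 populations (horizontal axis), with bars at group means and grey bands for the olfactory receptor yardstick. Id2 is near the band in CDP and pre-CD4 and between 8.34 and 10.15 in the other 3 populations, Tcf4 peaks in pre-CD4, and Id1 and Id3 stay at or below the band.

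Among the inhibitors, Id2 separated the populations most, with group means that spanned 4.96. Its levels were 5.32, 4.95 and 5.15 on the CDP arrays, 10.06 and 10.14 in pre-CD8, 5.40 and 5.46 in pre-CD4, 10.15, 10.04 and 9.87 in CD24 DCs, and 8.34 and 8.74 in CD172a DCs. Pre-CD8 and CD24 DC arrays were high and overlapped each other, CD172a DC arrays lay below them, and CDP and pre-CD4 arrays were low.

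Pre-CD8 averaged 10.10 ± 0.06 and CDP 5.14 ± 0.18 (SD, n = 2 and 3), a difference of at least 28.7-fold, and 31.1-fold with the CDP values as measured (adjusted p = 3.93e-08, limma). In that comparison 2 of the 6 genes were called, Id2 and Tcf4, where 4.76% of all genes were called at an adjusted p under 0.05. Set against pre-CD4, Id2 was 25.4-fold higher in pre-CD8 (4.67 ± 0.22, log2 difference ± SE, adjusted p = 2.77e-07). Pre-CD4 and CDP differed by 0.29 (95% confidence interval -0.14 to 0.72, adjusted p = 0.61), which did not pass the test.

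Between the mature cells, Id2 was 2.79-fold higher in CD24 DCs, at 10.02 ± 0.14, than in CD172a DCs, at 8.54 ± 0.29 (SD, n = 3 and 2, adjusted p = 0.000511). It was the 1 gene of the 6 called there, where 5.59% of all genes were called. CD24 DCs minus pre-CD8 gave -0.08 (95% confidence interval -0.51 to 0.35, adjusted p = 0.88), so the level in CD24 DCs was not separated from that of their progenitor. CD172a DCs were 8.60-fold higher than pre-CD4 (3.11 ± 0.22, log2 difference ± SE, adjusted p = 1.88e-06). In that comparison 3 of the 6 genes were called and 12.7% of all genes were.

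The lineage difference in Id2 therefore had different sizes at the 2 stages: 1.48 as CD24 minus CD172a DCs and 4.67 as pre-CD8 minus pre-CD4. The test of that change gave -3.19 ± 0.30 (SE, adjusted p = 0.000143). Id2 and Tcf4 were the 2 of the 6 genes called in it, where 1.03% of all genes were called. In order of level, pre-CD8 and CD24 DCs did not separate, CD172a DCs were below both (-1.56 ± 0.22 against pre-CD8, adjusted p = 0.000532), and pre-CD4 and CDP came last without separating.

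Cells of other lineages that express Id2 were measured through NK and ILC markers. The mean of 8 such genes was 5.25 to 5.53 in pre-CD8, 5.59 to 5.79 in CD172a DCs and 4.87 to 5.52 in CD24 DCs, against 4.57 to 4.70 in CDP and 5.14 in pre-CD4. Klrd1, an NK receptor subunit, averaged 9.97 in CD172a DCs and 8.70 in pre-CD4, while Ncr1, which encodes NKp46, averaged 4.32 and 3.59, Eomes 4.75 and 4.26, and Gzma 3.68 and 3.75 in the same order. None of the 8 was called between pre-CD8 and pre-CD4 or between CD172a DCs and pre-CD4, where 0.703% and 12.7% of all genes were called. With shares of that size, no call among 8 genes says little. Klrk1 was called higher in pre-CD8 than in CDP (2.06), and Klrd1 higher in pre-CD4 than in CDP (2.56), where 4.76% and 4.54% of all genes were called. Klrd1 was lower in CD24 than in CD172a DCs (-3.94 as measured, at least 3.54 higher in CD172a DCs), where 5.59% were called. Of 6 monocyte and macrophage markers in CD172a DCs against pre-CD4, Adgre1 was called higher (9.31 against 5.55) and 2 were called lower, where 12.7% of all genes were called. None of 7 T cell markers was called there. The neutrophil list varied most within a population, with array means of 6.94 to 10.46 in pre-CD8. The part of cells of any of these lineages in the Id2 levels was not tested.

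Id1 and Id3, inhibitors of the same kind, stayed within or below the olfactory receptor yardstick. Id1 lay between 4.46 and 5.14 on the 12 arrays and was called in no comparison. Both populations of the 1 main comparison that called Id3 lay below the yardstick. Id3 read 5.27 and 5.25 in CD172a DCs and 4.11 and 4.40 in pre-CD4, a difference of 1.00 ± 0.29 (SE, adjusted p = 0.0389). On the same arrays the 95th percentile of olfactory receptor genes was 5.76 and 5.47 in CD172a DCs and 5.22 and 5.32 in pre-CD4. Of those 1106 genes, 18 were called higher and 2 lower in that comparison, and the Id3 difference exceeded 97.8% of theirs. Quantile normalization gave 0.80 (adjusted p = 0.0659) and a covariate for the spread of values on each array gave 0.49 (adjusted p = 0.486). The call was also lost without either array of CD172a DC or pre-CD4. The genes most like Id3 over the 12 arrays were Olfr535 (r = 0.97), AI463229, Mir34b, Psg29 and Mir665 (r = 0.92). Id4, the remaining family member, averaged 4.69 to 5.07 over the 5 groups, was not called in the 7 main comparisons, and is no member of the 6.

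Among the E proteins, Tcf4 varied most and was highest in pre-CD4. It read 8.54, 8.39 and 8.38 in CDP, 7.56 and 7.69 in pre-CD8, 9.58 and 9.49 in pre-CD4, 7.14, 6.97 and 6.67 in CD24 DCs, and 7.43 and 7.57 in CD172a DCs. Pre-CD4 arrays were above all others, CDP arrays came next, and the remaining 3 populations lay below CDP without overlapping it.

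Pre-CD4 averaged 9.53 ± 0.07 and CDP 8.43 ± 0.09 (SD, n = 2 and 3), a 2.14-fold difference (adjusted p = 0.00468). Tcf4 was the 1 gene of the 6 called in that comparison, where 4.54% of all genes were called. Pre-CD8, at 7.62 ± 0.09, was 0.81 below CDP (SE 0.19, adjusted p = 0.0275). The pre-CD8 call was lost without any 1 of the 5 arrays compared (adjusted p up to 0.194), and the pre-CD4 call without either pre-CD4 array (adjusted p = 0.0606 and 0.0524). The progenitors therefore differed from CDP in opposite directions, and pre-CD8 minus pre-CD4 was -1.91 ± 0.21 (SE, adjusted p = 0.000555). Id2, higher in pre-CD8, and Tcf4, lower in it, were the 2 of the 6 called in that comparison, where 0.703% of all genes were called.

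In the mature cells, CD172a DCs were 2.03 below pre-CD4 in Tcf4 (SE 0.21, adjusted p = 3.59e-05). CD24 DCs minus CD172a DCs was -0.58 ± 0.19 (SE, adjusted p = 0.116), which did not pass. The arrays of the 2 groups did not overlap, as was so for 27% of all genes. CD24 DCs minus pre-CD8 was -0.70 ± 0.19 (SE, adjusted p = 0.0494), and with the array number as a block it was -0.62 (adjusted p = 0.0965). The lineage difference changed between stages by 1.34 ± 0.29 (SE, adjusted p = 0.0456), being -0.58 in mature cells and -1.91 in progenitors, a call that was lost without any 1 array other than CD24 DC array 3. In order of level, pre-CD8 and CD172a DCs did not separate (-0.12 ± 0.21 as CD172a DC minus pre-CD8, SE), nor did CD172a DCs and CD24 DCs.

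**Figure D2:**
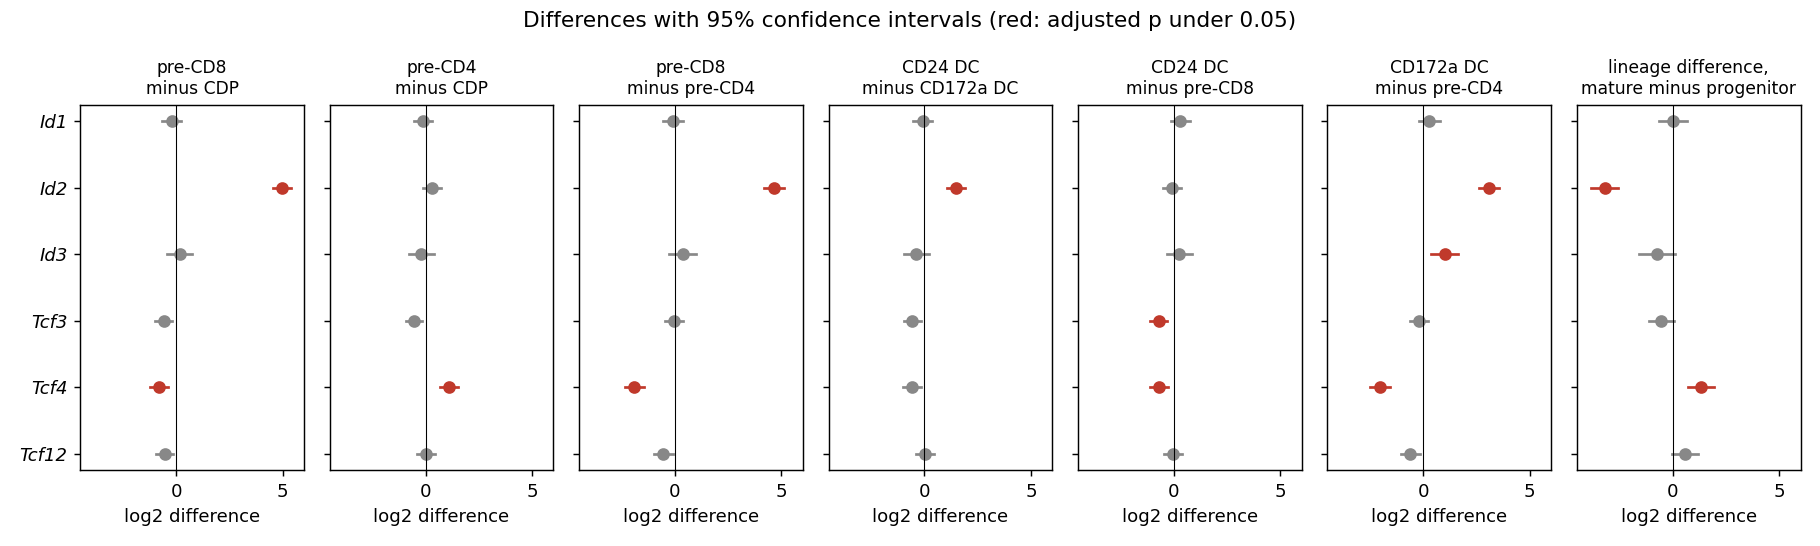
Points are log2 differences (horizontal axis) of the 6 genes (rows) in 7 comparisons, with 95% confidence intervals, red where the adjusted p is under 0.05. Id2 and Tcf4 lie on opposite sides of 0 in pre-CD8 minus CDP, pre-CD8 minus pre-CD4 and CD172a DC minus pre-CD4. They also do so in the change of the lineage difference. In CD24 DC minus CD172a DC they do too, with Tcf4 (-0.58) not red.

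Tcf3 was highest in CDP and lowest in CD24 DCs. It read 7.86, 8.02 and 8.07 in CDP, 7.52 and 7.27 in pre-CD8, 7.31 and 7.57 in pre-CD4, 6.68, 6.75 and 6.61 in CD24 DCs, and 7.27 and 7.23 in CD172a DCs. CDP arrays lay above all others and CD24 DC arrays below all others, and the pre-CD8 and pre-CD4 arrays overlapped each other.

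CD24 DCs minus pre-CD8 was -0.72 ± 0.18 for Tcf3 (SE, adjusted p = 0.0331), or -0.72 with an adjusted p of 0.0536 with the array number as a block. Tcf3 and Tcf4 were the 2 of the 6 genes called there, both lower, where 6.31% of all genes were called and 3.66% were called lower. The steps next to CDP did not pass: pre-CD8 minus CDP was -0.58 ± 0.18 (SE, adjusted p = 0.0999) and pre-CD4 minus CDP was -0.54 ± 0.18 (SE, adjusted p = 0.139). Over both steps, CD24 DCs minus CDP was -1.30 ± 0.16 (SE, adjusted p = 6.73e-05) and CD172a DCs minus CDP was -0.73 ± 0.18 (SE, adjusted p = 0.0109). CD24 DCs minus CD172a DCs was -0.57 ± 0.18 (SE, adjusted p = 0.0999).

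Tcf12 had the smallest range of the 3 E proteins. It read 7.70, 7.89 and 7.87 in CDP, 7.21 and 7.36 in pre-CD8, 7.65 and 8.02 in pre-CD4, 7.31, 7.36 and 7.09 in CD24 DCs, and 7.22 and 7.24 in CD172a DCs. CDP and pre-CD4 arrays were high and overlapped, and the other 3 populations were low and overlapped.

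None of the 7 main comparisons called Tcf12. CD172a DCs minus pre-CD4 was -0.61 ± 0.21 (SE, adjusted p = 0.0768), and pre-CD8 minus CDP was -0.53 ± 0.19 (SE, adjusted p = 0.161). Over both steps it was lower in both mature cells than in CDP, by -0.57 ± 0.17 in CD24 DCs (SE, adjusted p = 0.0307) and by -0.59 ± 0.19 in CD172a DCs (SE, adjusted p = 0.0403). These calls held in 15 and 11 of 22 processing alternatives, and quantile normalization gave -0.33 (adjusted p = 0.218) and -0.26 (adjusted p = 0.401). In CD24 DCs minus CDP, 4 of the 6 genes were called, with Id2 higher and all 3 E proteins lower, where 21.1% of all genes were called. In CD172a DCs minus CDP, 5 of the 6 were called, with Id2 and Id3 higher and all 3 E proteins lower, where 22.8% were. The Id3 call, between levels below the yardstick, held in 7 of 21 alternatives. In the same comparison 49 olfactory receptor genes were called higher and 0 lower, and the Id3 difference exceeded 94.6% of theirs. CD24 DCs minus pre-CD4 called 3 of the 6, Id2 higher and Tcf3 and Tcf4 lower, against 11.4% of all genes, and CD172a DCs minus pre-CD8 called only Id2, lower, against 9.41%.

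Across the 12 arrays the level of Id2 ran against those of the E proteins, at r = -0.85 with Tcf4, -0.89 with Tcf12 and -0.79 with Tcf3. Tcf4 and Tcf12 ran together at r = 0.83. The points fall into 5 groups that share their cells, so these values describe the groups.

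Genes whose pattern was most like that of Id2 were Wdfy4 (r = 0.98), needed for cross-presentation by cDC1, the double-stranded RNA receptor Tlr3 (0.97), the cDC1 factor Batf3 (0.97), the secreted fibrinogen-like gene Fgl2 (0.97) and the creatine kinase gene Ckb (0.96), out of 5166 genes whose group means span at least 1. Tlr3 averaged 3.84 in CDP, 9.98 in pre-CD8, 4.48 in pre-CD4, 10.24 in CD24 DCs and 6.72 in CD172a DCs. The most opposite were Slc49a4 (-0.99), a transporter gene, Cox6a2 (-0.96), a cytochrome oxidase subunit of pDCs and muscle, and Chchd10 (-0.96), a mitochondrial gene.

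**Figure D3:**
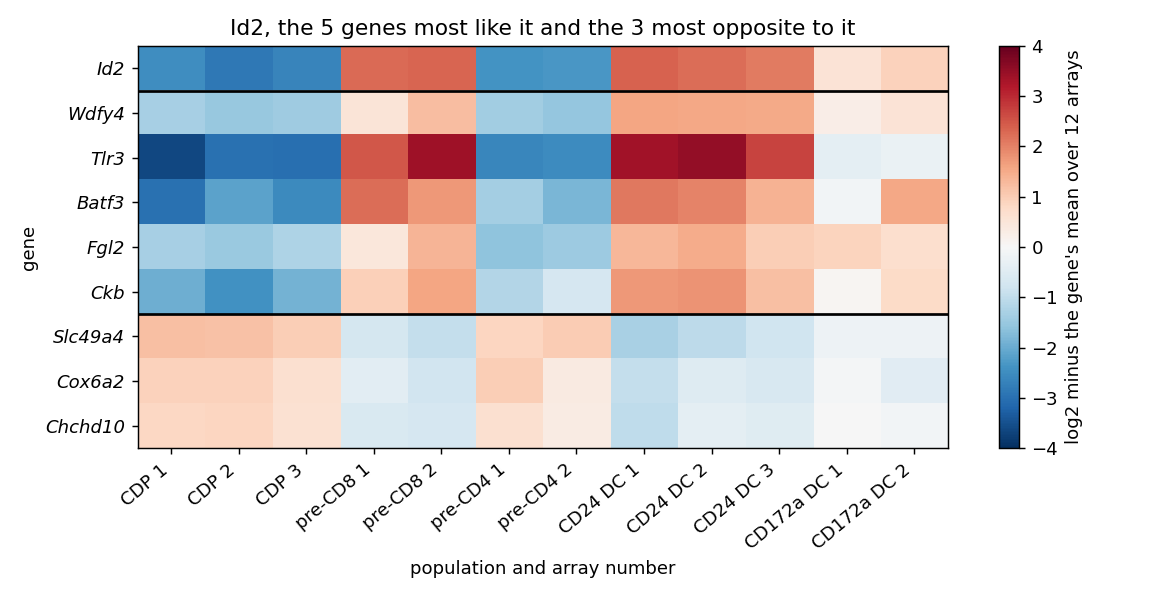
Colour gives the log2 level minus the gene's mean over the 12 arrays (columns, by population and array number) for Id2, the 5 genes most like it and the 3 most opposite. The pre-CD8 and CD24 DC columns are red for Id2 and the alike genes, and blue or pale for the opposite ones.

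For Tcf4 the most alike were Atp1b1 (r = 0.98), a sodium pump subunit, Evi5, Usp28, Insr, the insulin receptor, and Slc25a23 (0.96). The most opposite was Kit (-0.95), the stem cell factor receptor CD117, followed by Fchsd2 and Rasgrp3. Kit averaged 5.95 in pre-CD4, 8.24 in CDP, 9.04 in pre-CD8, 9.695 in CD172a DCs and 9.71 in CD24 DCs. CD117 was part of the progenitor gates and is not named in those of the spleen DCs. For Tcf3 they were Slc16a10 (0.98), an amino acid transporter, Ppp6r1, Gnptab, Cby1 and Dhrs3 (0.96), and the opposite ones were Epsti1 (-0.98), Cd200 and Prr5l.

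Of 17 pDC genes linked to Tcf4, 16 were measured. In pre-CD4 against CDP 8 of the 16 were called, 7 higher and 1 lower, where 4.54% of all genes were called, with a median difference of 0.93 against 0.02 over all genes. Among those higher were Spib, an ETS factor of pDCs and B cells (at least 3.43 on the log2 scale, 4.38 as measured), Upb1, a pyrimidine breakdown enzyme (3.01), and Siglech, a pDC lectin (2.12). Dntt, the terminal transferase, was at least 3.38 higher in CDP (-4.64 as measured). In pre-CD8 against CDP 2 of the 16 were higher and 4 lower, where 4.76% of all genes were called. The median difference there was 0.037 against 0.033 over all genes. The 2 higher genes, Irf7 (2.02) among them, were also called higher in pre-CD4. Dntt was lower in pre-CD8 too (-3.84 as measured, at least 3.36 higher in CDP). In pre-CD8 against pre-CD4 none was higher and 4 were lower, where 0.703% of all genes were called: Spib (-3.60 as measured, at least 3.29 higher in pre-CD4), Siglech (-2.55), Tex2 (-1.90) and Bcl11a (-1.30), with a median of -1.16 against 0.01 over all genes. Siglec H was gated out of pre-CD8 and not out of pre-CD4.

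In CD172a DCs against pre-CD4, 7 of the 16 were lower and 2 higher, where 12.7% of all genes were called, with a median of -1.03 against 0.085 over all genes. Tlr7, an endosomal RNA receptor, was at least 3.90 higher (4.90 as measured), and Upb1 (-3.35, with CD172a DCs below the yardstick), Bst2 (-3.34) and Tex2 (-2.54) were lower. In CD24 against CD172a DCs, Bcl11a (-0.997) was lower, Tlr7 was at least 3.71 higher in CD172a DCs (-5.36 as measured) and Spib at least 1.46 (-1.75 as measured), and Ptprs (0.71), a receptor phosphatase of pDCs, was higher in CD24 DCs. A set of 7 pDC markers that overlaps these 16 genes averaged 6.59 to 6.995 on the pre-CD4 arrays and 5.69 to 6.14 on all others. Of the 7, Siglech and Ly6d were called higher in pre-CD4 than in CDP, where 4.54% of all genes were called. Bst2 averaged 10.93 in pre-CD4 and 9.13 in CDP (adjusted p = 0.0776, limma), and Cox6a2 averaged 7.69 and 7.86. Ccr9 (4.52), Pacsin1 (5.06) and Klk1 (3.94) were below the olfactory receptor yardstick in pre-CD4. The part of pDCs in the Tcf4 level of pre-CD4 was not tested.

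**Figure D4:**
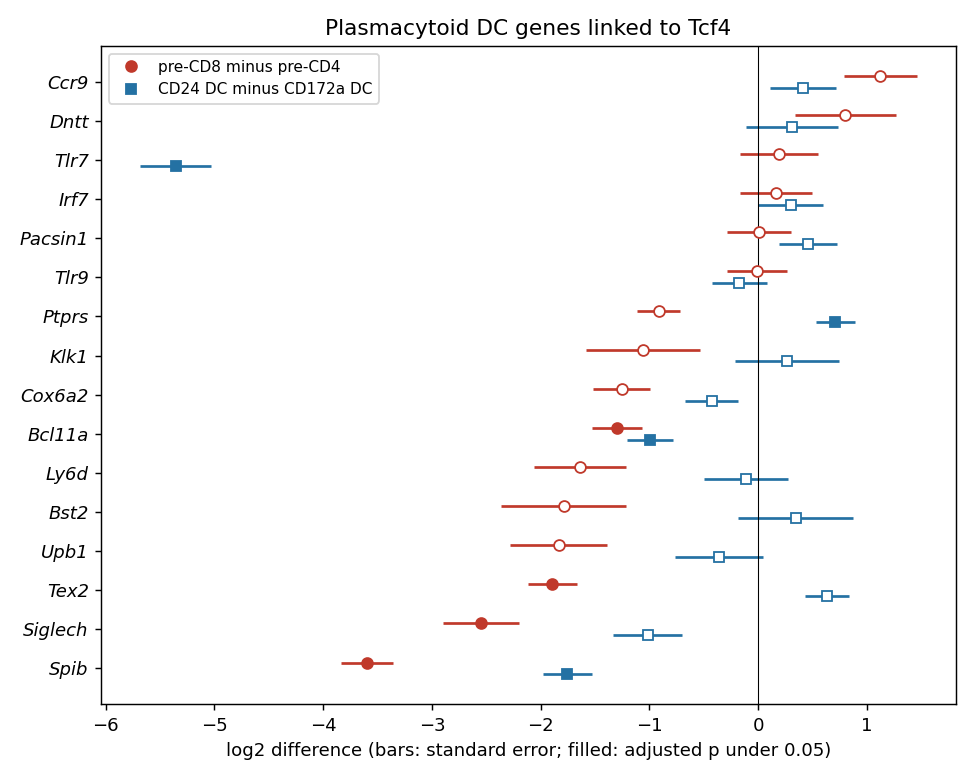
Log2 differences (horizontal axis) of the 16 measured pDC genes linked to Tcf4, in pre-CD8 minus pre-CD4 (red circles) and CD24 DC minus CD172a DC (blue squares), with standard errors and filled symbols where the adjusted p is under 0.05. Spib and Bcl11a are filled and below 0 in both comparisons, and Siglech and Tex2 are filled only in the progenitors.

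Of 10 factors that act around Id2 in DC development, 9 were measured. In pre-CD8 against CDP, Batf3 (at least 4.33), the repressor Bcl6 (2.72) and Zbtb46 (at least 1.71) were higher. In pre-CD4 against CDP, Irf4, a cDC2 factor (at least 1.96, 3.00 as measured), Bcl6 (1.94) and Zbtb46 (at least 1.26) were higher. Nfil3, which in mice acts upstream of Id2 in cDC1 development, was lower there (-1.49). It was not called in pre-CD8 against CDP (-0.57, adjusted p = 0.58, limma) or against pre-CD4 (0.92, adjusted p = 0.88, limma). Nfil3 averaged 7.79 in CD172a DCs and 7.58 in CD24 DCs. Pre-CD8 against pre-CD4 had Batf3 higher (3.58) and Irf4 lower (-2.15 as measured, at least 1.82 higher in pre-CD4). Irf8, which is needed for cDC1, averaged 12.14 in pre-CD8 and 11.99 in pre-CD4, and was 3.51 higher in CD24 than in CD172a DCs, where Irf4 was lower (-2.99 as measured, at least 2.79 higher in CD172a DCs). CD172a DCs against pre-CD4 had Batf3 (2.32), Nfil3 (2.31) and 2 more higher and Irf8 lower (-3.60), where 12.7% of all genes were called. Of all genes, 4.76% were called in pre-CD8 and 4.54% in pre-CD4 against CDP. The shares were 0.703% in pre-CD8 against pre-CD4 and 5.59% in CD24 against CD172a DCs.

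Among 9 cofactors that bind E proteins, Cbfa2t3 (ETO2) was higher than in CDP in both pre-CD8 (1.15) and pre-CD4 (1.03). Ldb1, a LIM-domain adaptor, was lower in pre-CD8 (-0.95), and in pre-CD4 its difference of -0.83 did not pass (adjusted p = 0.0627, limma). Of all genes, 4.76% were called in pre-CD8 and 4.54% in pre-CD4 against CDP. Cbfa2t2 was lower in CD172a DCs than in pre-CD4 (-0.97 as measured, at least 0.81 higher in pre-CD4), where 12.7% of all genes were called. Of 22 measured genes of Id4 and tissue-restricted partners, Lyl1, a haematopoietic partner of E proteins, was the only one called in the 7 main comparisons. It was lower in CD24 DCs than in pre-CD8 (-1.46 as measured, at least 1.42 higher in pre-CD8), where 6.31% of all genes were called. It was also lower in CD172a DCs than in pre-CD4 (-1.53), where 12.7% were called.

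TGF-beta and BMP signals are known to regulate Id genes in many cells. In pre-CD8 against CDP, 2 of 28 such genes were called, where 4.76% of all genes were: Acvrl1, a type I receptor, was higher (at least 1.42) and Eng, its co-receptor endoglin, lower (-1.79 as measured, at least 1.75 higher in CDP). Skil, a SMAD repressor, was higher in CD24 DCs than in pre-CD8 (2.27) and in CD172a DCs than in pre-CD4 (2.32). Smad7, an inhibitory SMAD, was too (0.96 and 1.56). Of the 28, 3 were higher and 0 lower in the CD24 comparison, where 6.31% of all genes were called. In the CD172a comparison 2 were higher and 2 lower, where 12.7% were called. The lower ones were Eng (-1.58 as measured, at least 1.235 higher in pre-CD4) and Acvr1 (-0.84 as measured, at least 0.82 higher). In CD24 DCs against pre-CD8 and CD172a DCs against pre-CD4, 9 and 12 of 15 tissue-dissociation stress genes were higher and none lower. There 6.31% and 12.7% of all genes were called, and list medians were 1.28 and 1.39 against 0.05 and 0.085 over all genes. Nr4a1 was 4.33 and 4.95 higher, and the part of dissociation in these differences was not tested. In pre-CD8 against CDP, both from crushed marrow, 6 of the 15 were higher, where 4.76% of all genes were called. In CD24 against CD172a DCs, both from digested spleen, none was called, where 5.59% of all genes were.

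Of 24 measured E-box factors of other families, 2 were higher and 1 lower in pre-CD8 than in CDP, where 4.76% of all genes were called. In pre-CD4 against CDP 2 were higher and 2 lower, where 4.54% were called. Tfec was lower than in CDP in both pre-CD8 (-3.42) and pre-CD4 (-4.38 as measured, at least 3.62 higher in CDP). Bhlhe40 and Zeb1 were higher in both. Hes1, a Notch target, was higher in CD24 DCs than in pre-CD8 (at least 1.14, 2.03 as measured). It was also higher in CD172a DCs than in pre-CD4 (at least 1.36, 1.79 as measured). Of the 24, 2 were higher and 1 lower in the CD24 comparison, where 6.31% of all genes were called. In the CD172a comparison 2 were higher and 2 lower, where 12.7% were called. Of 18 measured lymphoid genes linked to E proteins, Rag2 (-1.37, at least 0.092 higher in CDP), Cdkn1a (-1.31) and Notch1 (-1.11) were lower in pre-CD8 than in CDP. None was higher, where 4.76% of all genes were called. Notch1 was also the 1 lower gene of the 18 in pre-CD4 than in CDP (-0.72), where 4.54% of all genes were called.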

How the data were processed

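RNA of 12 sorted samples was amplified (NuGEN Ovation Pico WTA), biotin-labelled and hybridized to arrays, per the labels' protocols. The deposited values are log2 expression, 1 per probe set and array. How the authors corrected background, summarized and normalized them is not given in the sources used here. They were used as deposited because array means differed little (5.28 to 5.34), although interquartile ranges ran from 2.10 to 2.86. Of 35145 probe sets, 23525 have 1 symbol in the platform annotation, 1810 several and 9810 none, and those with several or none were left out of the gene tests. The probe set with the highest mean represents each of 22184 genes.

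Samples were grouped by title. One limma 3.58.1 fit (R 4.3.3) with a mean for each of 5 groups gave two-sided p-values, Benjamini-Hochberg adjusted over all 22184 genes, called under 0.05 (residual degrees of freedom 7, prior 6.18). The script was tested on simulated data. The number of arrays limits the precision, with a median standard error of 0.244 for 3 against 2 arrays and 0.267 for 2 against 2. Comparisons that share a group share its arrays. The 6 genes and all lists were chosen with earlier results of these data known. All 6 genes are named, from each list at most the 4 called genes with the largest differences in a comparison, and for likeness the 5 highest and 3 lowest Pearson r. List and marker means are unweighted means of log2 values.

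Array numbers of the titles gave deviations that correlated at 0.10 to 0.42 in 13 same-number pairs outside CD172a DCs and at -0.16 to 0.024 in the 8 pairs with it. The labels do not say what a number marks, so pairing is not established, and block values stand beside the calls that they end. Alternatives were quantile normalization, the block, each array left out, arrays numbered 1 left out, only the compared groups, the mean of probe sets, a filter under the 40th percentile, every probe set, an intensity trend, an interquartile range covariate, array weights and adjustment over 7 comparisons. The 4 comparisons that complete the order of populations were put through all but the last of these after the data were seen.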

Additional observations from a re-analysis of the deposited data

Results flagged for a closer look

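The lineage difference of 2 genes differed between the stages, by a limma contrast of the mature against the progenitor difference. For Id2 it was 1.48 in mature cells and 4.67 in progenitors, a change of -3.19 (adjusted p = 0.000143). CD172a DC arrays, at 8.34 and 8.74, stood above the pre-CD4 arrays, at 5.40 and 5.46, while CD24 DC and pre-CD8 arrays overlapped. For Tcf4 the difference was -0.58 in mature cells and -1.91 in progenitors, a change of 1.34 (adjusted p = 0.0456). The adjusted p of the Tcf4 change ran from 0.00839 to 0.719 over 23 alternatives and passed the threshold in 9 of them. Stage and organ cannot be told apart in either change.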

How the results depend on the processing

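In the 7 main comparisons, 13 of 42 values were called, and 5 of them kept their direction and call in all 23 alternatives: Id2 in pre-CD8 minus CDP, pre-CD8 minus pre-CD4, CD172a DC minus pre-CD4 and the stage change, and Tcf4 in CD172a DC minus pre-CD4. The filter on dim genes leaves out Id1 and Id3 and gives them no value. The 4 comparisons that complete the order of populations were rerun under 22 of these alternatives, chosen after seeing the data. Of their 13 calls, 7 were kept throughout: the 4 of Id2, Tcf3 in CD24 DC minus CDP, and Tcf4 in CD24 DC minus CDP and minus pre-CD4. Quantile normalization moved the median of all genes by 0.073 or less in size in the 7 main comparisons, and by -0.11 in CD172a DC minus CDP, to 0.02 against 0.13 as deposited, so differences there stand relative to those medians.

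Without the 5 arrays numbered 1, calls were lost for Tcf4 in pre-CD8 minus CDP (-0.70), pre-CD4 minus CDP (1.11), pre-CD8 minus pre-CD4 (-1.80), CD24 DC minus pre-CD8 (-0.87) and the stage change (1.05), for Id2 in CD24 minus CD172a DC (1.22), for Tcf3 in CD24 DC minus pre-CD8 (-0.59) and for Id3 in CD172a DC minus pre-CD4 (0.85). Uncalled signs turned for Id3 in pre-CD8 minus CDP (-0.10), for Id1 in pre-CD8 minus pre-CD4 (0.067) and CD24 minus CD172a DC (0.12), and for Tcf12 in CD24 minus CD172a DC (-0.017). This alternative has 7 arrays.

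With quantile normalization, calls were lost in CD24 DC minus pre-CD8 for Tcf3 (-0.55) and Tcf4 (-0.52) and in CD172a DC minus pre-CD4 for Id3 (0.80). Calls were gained in CD24 minus CD172a DC for Tcf3 (-0.66, adjusted p = 0.0482) and Tcf4 (-0.65, adjusted p = 0.0298). Uncalled signs turned for Tcf3 in pre-CD8 minus pre-CD4 (0.012) and CD172a DC minus pre-CD4 (0.12), for Id1 (0.004) and Tcf12 (-0.068) in CD24 minus CD172a DC, and for Tcf12 in CD24 DC minus pre-CD8 (0.14). The cause was not tested.

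With the array number as a replicate block, Tcf3 (-0.72) and Tcf4 (-0.62) in CD24 DC minus pre-CD8 lost their calls, Tcf12 in pre-CD4 minus CDP turned sign uncalled (-0.007), and no other of the 26 calls changed. With only the compared groups, Tcf3 (-0.72) and Tcf4 (-0.70) in CD24 DC minus pre-CD8 and the stage change of Tcf4 (1.34) lost theirs, with fewer arrays in the fit. With every probe set tested, Tcf3 (-0.72) and Tcf4 (-0.70) in CD24 DC minus pre-CD8, Id3 in CD172a DC minus pre-CD4 (1.00) and the stage change of Tcf4 (1.34) were lost, and adjustment over 7 comparisons ended Tcf4 in CD24 DC minus pre-CD8 (-0.70) and Id3 in CD172a DC minus pre-CD4 (1.00). The dim filter gained Tcf12 in CD172a DC minus pre-CD4 (-0.61, adjusted p = 0.0435).

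With the interquartile range as a covariate, calls were lost in CD24 DC minus pre-CD8 for Tcf3 (-0.71) and Tcf4 (-0.53) and in CD172a DC minus pre-CD4 for Id3 (0.49), and Tcf4 in CD24 minus CD172a DC was gained (-0.65). Uncalled signs turned for Id3 in pre-CD8 minus CDP (-0.031) and in CD24 DC minus pre-CD8 for Id3 (-0.030) and Id2 (0.068). Array weights gained Tcf3 in pre-CD8 minus CDP (-0.63) and pre-CD4 minus CDP (-0.58), Tcf4 in CD24 minus CD172a DC (-0.54) and Tcf12 in CD172a DC minus pre-CD4 (-0.61). They turned uncalled signs of Tcf12 in pre-CD4 minus CDP (-0.014) and CD24 DC minus pre-CD8 (0.062) and of Id1 in CD24 minus CD172a DC (0.21).

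Leaving out 1 array at a time, differences of called genes ranged as follows. Tcf4 in pre-CD8 minus CDP (-0.88 to -0.75) lost its call without any 1 array of CDP or pre-CD8, and in pre-CD4 minus CDP (1.05 to 1.15) without either pre-CD4 array. In CD24 DC minus pre-CD8, Tcf3 (-0.84 to -0.59) lost it without CDP array 2 or 3, CD24 DC array 2 or 3 or either pre-CD8 array. Tcf4 there (-0.80 to -0.57) lost it without any 1 array other than CD24 DC array 1. Id3 in CD172a DC minus pre-CD4 (0.86 to 1.15) lost it without CDP array 3, CD24 DC array 2 or any 1 array of CD172a DC, pre-CD4 or pre-CD8. The stage change of Tcf4 (1.23 to 1.47) lost it without any 1 array other than CD24 DC array 3. Uncalled values that turned sign ranged for Id1 from -0.27 to 0.026 in pre-CD4 minus CDP, from -0.24 to 0.052 in pre-CD8 minus pre-CD4, from -0.23 to 0.027 in CD24 minus CD172a DC and from -0.14 to 0.17 in the stage change. They ranged for Id3 from -0.12 to 0.35 in pre-CD8 minus CDP and for Tcf3 from -0.17 to 0.082 in pre-CD8 minus pre-CD4. For Tcf12 they ranged from -0.17 to 0.21 in pre-CD4 minus CDP, from -0.031 to 0.10 in CD24 minus CD172a DC and from -0.10 to 0.049 in CD24 DC minus pre-CD8.

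In the order comparisons, quantile normalization ended Tcf12 (-0.33) in CD24 DC minus CDP, Id3 (0.58), Tcf3 (-0.41) and Tcf12 (-0.26) in CD172a DC minus CDP, and Tcf3 (-0.54) in CD24 DC minus pre-CD4. It turned uncalled signs of Id1 in CD24 DC minus CDP (-0.087) and CD172a DC minus CDP (-0.091) and of Tcf3 (0.11), Tcf4 (0.13) and Tcf12 (0.21) in CD172a DC minus pre-CD8. Without the arrays numbered 1, Tcf12 (-0.65) in CD24 DC minus CDP, Id3 (0.51), Tcf3 (-0.81), Tcf4 (-0.81) and Tcf12 (-0.64) in CD172a DC minus CDP, and Tcf3 (-0.88) in CD24 DC minus pre-CD4 were lost. The interquartile range covariate ended Tcf12 (-0.57) in CD24 DC minus CDP and Id3 (0.19), Tcf3 (-0.71), Tcf4 (-0.57) and Tcf12 (-0.60) in CD172a DC minus CDP, and turned uncalled signs of Id3 in CD24 DC minus CDP (-0.062) and Tcf4 in CD172a DC minus pre-CD8 (0.125). Only the compared groups ended Tcf12 in CD24 DC minus CDP (-0.57), Id3 in CD172a DC minus CDP (0.80) and Tcf3 in CD24 DC minus pre-CD4 (-0.76), and every probe set ended Id3 (0.80) and Tcf12 (-0.59) in CD172a DC minus CDP. The dim filter gained Tcf12 in CD24 DC minus pre-CD4 (-0.59). Array weights gained Id1 (0.40) and Id3 (0.395) in CD24 DC minus CDP and Id1 (0.49), Id3 (0.74) and Tcf12 (-0.49) in CD24 DC minus pre-CD4.

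Leaving out 1 array, in CD24 DC minus CDP Tcf12 (-0.63 to -0.49) lost its call without CDP array 2 or 3 or CD24 DC array 3. In CD172a DC minus CDP, Id3 (0.52 to 0.99) lost it without CDP array 1 or 3, CD24 DC array 2 or any 1 array of CD172a DC, pre-CD4 or pre-CD8, Tcf3 (-0.79 to -0.69) without either CD172a DC array, and Tcf12 (-0.65 to -0.55) without any 1 array of CDP, CD172a DC or pre-CD8. Tcf3 in CD24 DC minus pre-CD4 (-0.89 to -0.63) lost it without pre-CD4 array 2. Uncalled values that turned sign ranged for Id1 from -0.068 to 0.19 in CD24 DC minus CDP and for Tcf12 from -0.13 to 0.019 in CD172a DC minus pre-CD8.

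Over the alternatives the number of all genes called ran from 502 to 1629 in pre-CD8 minus CDP (1057 as reported), from 298 to 2021 in pre-CD4 minus CDP (1008), from 34 to 319 in pre-CD8 minus pre-CD4 (156), from 508 to 2349 in CD24 minus CD172a DC (1239), from 571 to 2556 in CD24 DC minus pre-CD8 (1399), from 996 to 3752 in CD172a DC minus pre-CD4 (2821) and from 84 to 481 in the stage change (229).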
